A study of Mus musculus with 9 samples.

Results

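A set of 10 genes that serve the uptake of shed photoreceptor outer segments was followed in whole eyes of 3 mouse strains: the receptor kinases Mertk, Tyro3 and Axl, the integrin subunits Itgav and Itgb5, the scavenger receptor Cd36, the ligands Gas6, Pros1 and Mfge8, and the motor myosin Myo7a. They were taken by gene symbol from the 9 tables of the series, which list 13089 genes each, and all 10 were found. The groups are wild-type A/J, BALB/c and C57BL/6J females aged 4 weeks, with 3 libraries per strain, and the study set out to compare strains whose retinas degenerate at different rates. Of the 3, C57BL/6J has a pigmented eye, while the eyes of the other two strains lack melanin. Each library was made from total RNA pooled from 5 mice. The labels do not say whether the 3 pools of a strain came from separate mice, so p-values measure the spread between these libraries, which may be technical.

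Photoreceptors shed the tips of their outer segments every day, and the retinal pigment epithelium behind them binds and swallows the debris. The shed membrane exposes phosphatidylserine. Mfge8 links that lipid to the integrin made of Itgav and Itgb5, which holds the debris, while Gas6 and Pros1 link it to the kinases Mertk, Tyro3 and Axl, of which Mertk drives engulfment. Myo7a then helps to carry the phagosome away from the apical surface, where it also positions melanosomes, and it is found at the connecting cilium of photoreceptors. Loss of MERTK in people causes retinal dystrophy, and loss of MYO7A causes Usher syndrome, in which deafness and retinal degeneration occur together.

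The values are read densities scaled for gene length and library total (RPKM), so levels can be compared between genes; read depth is unknown. Libraries did not differ by strain alone. The first principal component of all genes held 49.1% of the variance and set A/J 1 and A/J 2, at -42.4 and -51.4, against C57BL/6J 3 at 56.4, with A/J 3 at 7.3. Libraries also differed in base composition: the Spearman correlation across genes between GC content and a library's deviation was -0.64 in A/J 1 and -0.72 in A/J 2, 0.46 in A/J 3 and 0.39 in C57BL/6J 3. It was highest in BALB/c 2 and BALB/c 3, at 0.56 and 0.54, although these lay at 14.8 and 12.4 on the component. Genes are not independent replicates, and these correlations describe the libraries only. Calls on the 10 genes are therefore also given without A/J 3, and without it and C57BL/6J 3. None of the markers of the pigment epithelium (13 of 14 listed) or of rods and cones (14 of 14 listed) was at 0 in any library.

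Myo7a was the only one of the 10 genes that passed the test, and it was lower in both albino strains. A/J eyes had 1.86, 1.42 and 2.2 RPKM of Myo7a, BALB/c eyes 2.49, 2.8 and 2.83 RPKM, and C57BL/6J eyes 4.71, 5.32 and 6.4 RPKM. No library of one strain fell within the range of another: all A/J libraries were below all BALB/c libraries, and all BALB/c libraries were below all C57BL/6J libraries. The means were 1.83 ± 0.391 RPKM for A/J, 2.71 ± 0.188 RPKM for BALB/c and 5.48 ± 0.856 RPKM for C57BL/6J (SD, n = 3 each). As deposited, before any scaling by library, C57BL/6J eyes thus held 3.0 times the A/J level and 2.02 times the BALB/c level. Across all genes, 3.12% had 3 strains with no overlap. In a whole-eye extract, fewer cells of a type and less RNA per cell cannot be told apart.

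**Figure D1:**
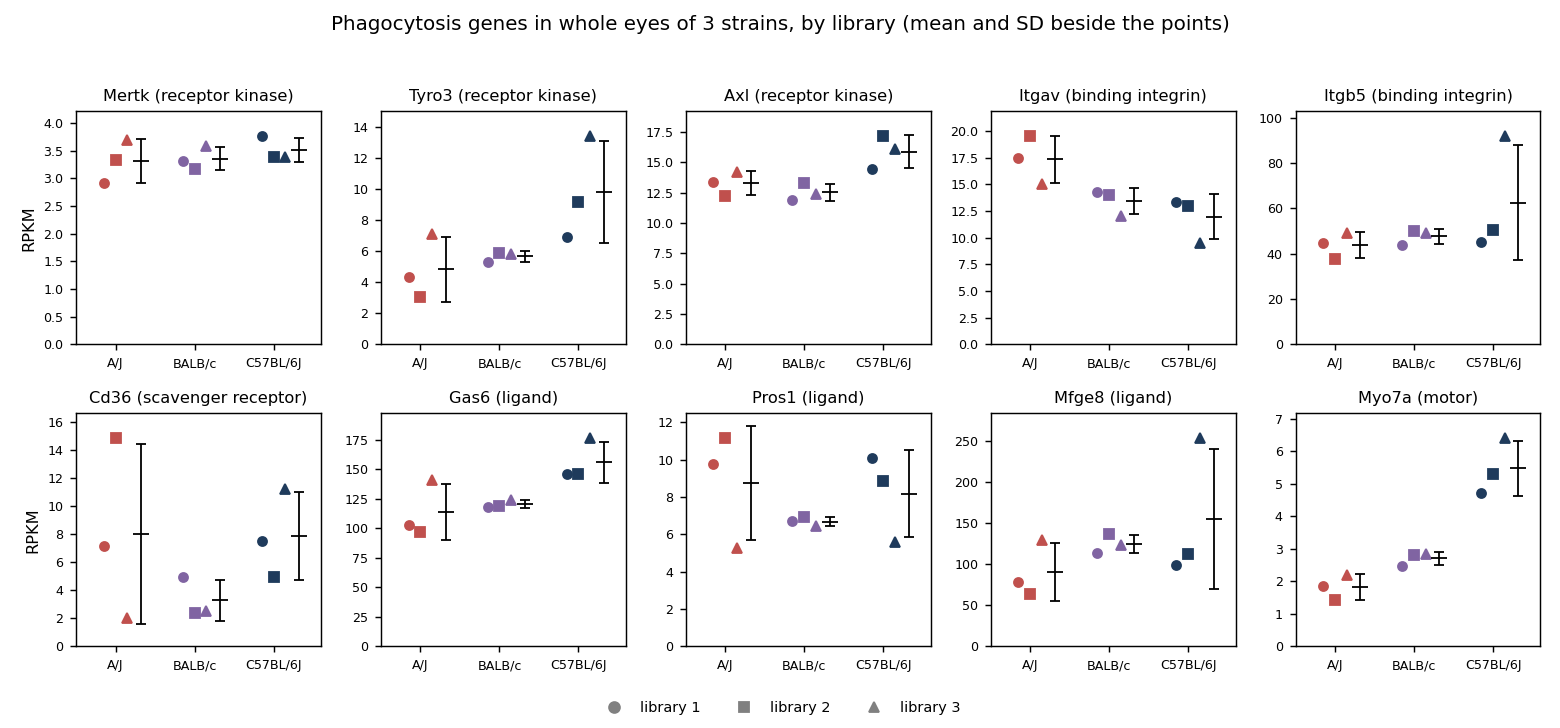
RPKM of each of the 10 genes by library (vertical axis from 0, a separate scale for each gene) for A/J, BALB/c and C57BL/6J eyes, with the mean and SD (n = 3) beside the points. Myo7a separates the 3 strains, with A/J at 1.42 to 2.2, BALB/c at 2.49 to 2.83 and C57BL/6J at 4.71 to 6.4, whereas Mertk lies between 2.92 and 3.76 in all 9 libraries.

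Tests used log2(scaled RPKM + 0.5), and the added 0.5 makes a low gene's change look smaller. Scaling by library also made the Myo7a change in A/J relative to C57BL/6J smaller, as it was -1.37 without size factors. On the tested scale Myo7a fell by 1.27 in A/J relative to C57BL/6J (SE 0.16, 95% interval -1.62 to -0.92, limma adjusted p = 0.0022). In BALB/c it fell by 0.73 relative to C57BL/6J (SE 0.16, 95% interval -1.08 to -0.38, limma adjusted p = 0.039). The A/J value was 0.54 below the BALB/c value (log2 change -0.54, 95% interval -0.89 to -0.18), which did not pass the test (limma adjusted p = 0.12). This difference depended on the processing: it was called without A/J 3, at -0.64 (limma adjusted p = 0.018), and was -0.28 with each library corrected for its GC trend (limma adjusted p = 0.21). At unadjusted p under 0.05 there were 4 of the 10 genes between A/J and C57BL/6J (Tyro3, Itgav, Gas6 and Myo7a), against 17.5% of all genes. Between BALB/c and C57BL/6J there was 1, Myo7a, against 13.8%, and between A/J and BALB/c 1, again Myo7a, against 20.9%. At the adjusted threshold of 0.05, 2.69% of the 12920 genes tested were called between A/J and C57BL/6J, 3.09% between BALB/c and C57BL/6J and 2.48% between A/J and BALB/c. Calls of lower genes were 1.62% in the A/J and 1.15% in the BALB/c comparison with C57BL/6J. Genes called lower in both albino strains made up 0.712%. The F test over the 3 strains gave an adjusted p of 0.0041 for Myo7a (limma), with 4.47% of genes called. An exact permutation test of the same values over all 1680 assignments of libraries to strains gave p = 0.0036, the smallest it can give.

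The A/J call was made again in each of 9 fits that left out 1 library (limma adjusted p 0.002 to 0.015), but with both A/J 1 and A/J 2 left out the change was -1.08 and missed the threshold (limma adjusted p = 0.055), with A/J 3 as the lone A/J library assumed to vary like the others. The BALB/c call is less secure. It was lost in 7 of the 9 fits, with limma adjusted p from 0.066 to 0.19 in them, and was made only when A/J 2 or A/J 3 was the library left out; the change itself stayed between -0.81 and -0.68.

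Marker genes of the cells that make Myo7a are set beside it here. As deposited, 14 rod and cone markers summed to 10200 to 11600 RPKM across A/J eyes and 12600 to 13500 RPKM across BALB/c eyes. Across C57BL/6J eyes they summed to 13500 to 15700 RPKM. A/J thus lay lowest, while the rounded BALB/c and C57BL/6J ranges met at 13500 RPKM, which those of Myo7a did not. After scaling by library, the mean log2 level of these markers was 8.19 for A/J, 8.27 for BALB/c and 8.35 for C57BL/6J. The list's median log2 change relative to C57BL/6J was -0.24 in A/J and -0.03 in BALB/c, against -0.01 for all genes in both. The 13 pigment epithelium markers, as deposited, summed to 1410 to 1840 RPKM across A/J eyes and 1410 to 1580 RPKM across BALB/c eyes. Across C57BL/6J eyes they summed to 1510 to 1920 RPKM, so the strains overlapped. Ttr, Rgr and Rlbp1, at means of 488, 399 and 288 RPKM, weighed most in these sums. After scaling by library, the mean log2 level of the 13 was 5.73 for A/J, 5.57 for BALB/c and 5.57 for C57BL/6J. Whether other cells of the eye add to these markers was not tested. None of the 13 was called in any of the 3 comparisons by limma; at unadjusted p under 0.05 there were 3 for A/J minus C57BL/6J, 0 for BALB/c minus C57BL/6J and 5 for A/J minus BALB/c. Among the 14 rod and cone markers these unadjusted counts were 5, 1 and 8, and over all genes the shares were 17.5%, 13.8% and 20.9%. Set against the mean log2 level of these 13 markers, Myo7a stood at -4.51 ± 0.35 in A/J eyes, -3.82 ± 0.07 in BALB/c eyes and -3.09 ± 0.26 in C57BL/6J eyes (SD, n = 3 each; exact permutation F test, p = 0.0036). Set against the 14 rod and cone markers, it stood at -6.97 ± 0.26 in A/J eyes, -6.52 ± 0.11 in BALB/c eyes and -5.87 ± 0.21 in C57BL/6J eyes (SD, n = 3 each; exact permutation F test, p = 0.0036). Relative to either list the 3 strains did not overlap, as for Myo7a alone. The strain means of the lists spanned only 5.57 to 5.73 and 8.19 to 8.35, whereas those of Myo7a spanned 1.22 to 2.49. Subtracting the lists could therefore hardly undo a separation that Myo7a already showed, so these p-values add little. Whether the content of marker cells had a part in the Myo7a difference was not tested. The pigment epithelium markers ran from 38% GC (Ermn) to 63.3% (Slc16a8), against 56.3% for Myo7a. The relative levels were not corrected for the GC trends of the libraries.

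**Figure D2:**
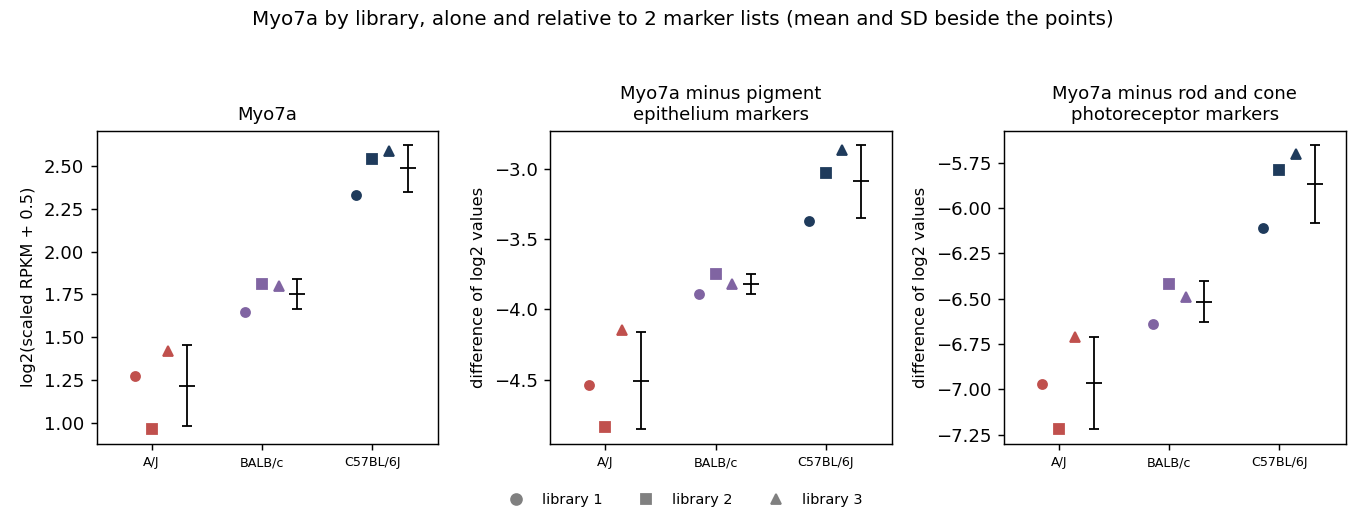
Myo7a by library as log2(scaled RPKM + 0.5), and as the difference from the mean log2 level of pigment epithelium markers and of rod and cone markers (vertical axes, which do not start at 0), for A/J, BALB/c and C57BL/6J eyes, with mean and SD (n = 3) beside the points. In every panel the 3 A/J libraries lie lowest and the 3 C57BL/6J libraries highest.

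Since Myo7a is the gene the strains differ in, the bases upstream of its annotated starts are shown. RefSeq (GRCm38.p6) gives 2 starts on the minus strand of chromosome 7, which lie 10245 bases apart, the second within the gene; the deposited values are per gene and do not separate them. The 250 bases before each start, at chr7:98119494-98119743 for the first and chr7:98109249-98109498 for the second, are printed with motif matches in capitals:

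Myo7a, first start: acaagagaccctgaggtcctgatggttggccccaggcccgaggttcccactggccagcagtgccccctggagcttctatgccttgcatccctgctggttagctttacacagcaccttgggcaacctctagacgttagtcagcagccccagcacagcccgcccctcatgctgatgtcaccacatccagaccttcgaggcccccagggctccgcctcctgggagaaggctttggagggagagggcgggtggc

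Myo7a, second start: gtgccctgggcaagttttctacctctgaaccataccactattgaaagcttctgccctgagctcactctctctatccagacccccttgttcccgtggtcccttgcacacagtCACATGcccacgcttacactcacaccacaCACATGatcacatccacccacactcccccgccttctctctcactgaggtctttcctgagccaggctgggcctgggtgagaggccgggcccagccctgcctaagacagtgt

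The motifs searched on both strands were CATGTG and CACGTG, E-box cores bound by MITF, a transcription factor of pigment cells, and TAATCC, the core bound by OTX2 and CRX, homeodomain factors of pigment epithelium and photoreceptors. The first window, with 63.2% GC, held none of them. The second, with 57.6% GC, held CATGTG 2 times, both on the opposite strand (read CACATG above). Of all 32851 RefSeq windows of that length, 12.3% held CATGTG, 6.02% CACGTG and 6.25% TAATCC. Among the 11 windows of the 10 genes only this second one held any of the 3 motifs. A match is a run of letters, not a binding site.

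The receptor kinases did not pass the test in any comparison. Mertk, the engulfment receptor, had 2.92, 3.33 and 3.7 RPKM in A/J, 3.31, 3.18 and 3.58 RPKM in BALB/c, and 3.76, 3.39 and 3.38 RPKM in C57BL/6J. The groups overlapped in every comparison. Its log2 change was 0.02 in A/J (95% interval -0.28 to 0.32) and 0.10 in BALB/c (95% interval -0.20 to 0.40), each relative to C57BL/6J. Each interval spans the changes compatible with these 3 libraries a strain, and it is not a limit of detection.

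Tyro3, a related kinase whose level modifies the degeneration of mice that lack Mertk, varied most among the kinases. A/J eyes had 4.33, 3.04 and 7.12 RPKM, BALB/c eyes 5.29, 5.87 and 5.84 RPKM, and C57BL/6J eyes 6.95, 9.17 and 13.4 RPKM. BALB/c lay wholly below C57BL/6J, and only A/J 3 reached into the C57BL/6J range. The log2 change in A/J relative to C57BL/6J was -0.88 (95% interval -1.5 to -0.25, limma adjusted p = 0.17), and that in BALB/c was -0.53 (95% interval -1.16 to 0.09, limma adjusted p = 0.46). Axl, the third kinase, which is also made by vessels and macrophages, had 13.39, 12.26 and 14.24 RPKM in A/J, 11.88, 13.3 and 12.36 RPKM in BALB/c, and 14.41, 17.13 and 16.08 RPKM in C57BL/6J. As deposited, both albino strains lay below C57BL/6J. After scaling by library the groups overlapped, and the log2 changes were -0.14 in A/J and -0.16 in BALB/c (95% intervals -0.44 to 0.16 and -0.45 to 0.14).

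Markers of cells other than the pigment epithelium that express Tyro3, Axl or Gas6 were also summed, as deposited. The summed RPKM of 12 listed microglia and macrophage markers ranged from 83.6 to 94.4 across A/J eyes, from 87.3 to 95.8 across BALB/c eyes and from 126 to 142 across C57BL/6J eyes. That of 12 endothelial markers ranged from 83.9 to 94.1 across A/J eyes, from 102 to 109 across BALB/c eyes and from 122 to 136 across C57BL/6J eyes. No marker of either list was at 0. After scaling by library, the microglia and macrophage markers had a mean log2 level of 2.72 for A/J, 2.77 for BALB/c and 3.01 for C57BL/6J, and the endothelial markers one of 2.65 for A/J, 2.96 for BALB/c and 3.04 for C57BL/6J. Their part in the values of Tyro3, Axl and Gas6 was not tested.

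Neither of the 2 subunits of the binding integrin passed the test. Itgav, the alpha subunit, had 17.52, 19.5 and 15.06 RPKM in A/J, 14.33, 13.97 and 12.04 RPKM in BALB/c, and 13.37, 12.98 and 9.53 RPKM in C57BL/6J. All A/J libraries exceeded all C57BL/6J libraries, and the log2 change was 0.63 (95% interval 0.19 to 1.07, limma adjusted p = 0.16). Itgb5, the beta subunit, had 44.57, 37.77 and 49.18 RPKM in A/J, 43.95, 49.99 and 49.0 RPKM in BALB/c, and 45.34, 50.4 and 91.7 RPKM in C57BL/6J. Here C57BL/6J 3 alone stood high, and the log2 change in A/J relative to C57BL/6J was -0.33 (95% interval -0.82 to 0.15). It was -0.08 without C57BL/6J 3 and -0.08 with GC correction, and the change in BALB/c relative to C57BL/6J, -0.14, was 0.11 without C57BL/6J 3. Of the 31-base stretches in their annotated transcripts, 5.63% for Itgav and 7.86% for Itgb5 also occur in another annotated gene, so a small part of their reads may be shared; the share was 0.625% for Myo7a, 0.278% for Gas6 and 0 for the others.

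Cd36, a scavenger receptor that speeds internalisation and is abundant in fat, muscle and capillaries, had 7.17, 14.8 and 2.05 RPKM in A/J, 4.94, 2.37 and 2.53 RPKM in BALB/c, and 7.52, 4.92 and 11.18 RPKM in C57BL/6J. The A/J libraries alone spanned 7.22-fold, the widest range of any of the 10 genes within a strain. The interval of its log2 change in A/J relative to C57BL/6J ran from -1.47 to 1.17, so the libraries could not place it. The summed RPKM of 9 listed adipocyte markers also varied widely, from 25.3 to 98.2 across A/J eyes, from 46.4 to 99.2 across BALB/c eyes and from 18.1 to 49.1 across C57BL/6J eyes. Skeletal muscle markers summed to 1620 to 2370 across A/J eyes, 1400 to 1760 across BALB/c eyes and 1920 to 2300 across C57BL/6J eyes. The part of these tissues in Cd36 was not tested.

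Among the ligands, Gas6 and Mfge8 were the highest of the 10 genes and Pros1 was lower, and none passed the test. Gas6 had 102.89, 96.82 and 140.76 RPKM in A/J, 117.76, 119.19 and 123.88 RPKM in BALB/c, and 145.65, 146.15 and 175.97 RPKM in C57BL/6J. Every C57BL/6J library was above every albino library as deposited, but after scaling A/J 3 came within the C57BL/6J range. The log2 change was -0.36 in A/J (95% interval -0.69 to -0.03, limma adjusted p = 0.26) and -0.19 in BALB/c (95% interval -0.52 to 0.14), each relative to C57BL/6J. Pros1, the other ligand of the kinases, had 9.77, 11.13 and 5.29 RPKM in A/J, 6.72, 6.9 and 6.42 RPKM in BALB/c, and 10.07, 8.85 and 5.59 RPKM in C57BL/6J. Library 3 was the low one in both A/J and C57BL/6J, and the strains overlapped. Mfge8, the integrin ligand, had 78.17, 63.6 and 129.87 RPKM in A/J, 113.98, 136.38 and 123.45 RPKM in BALB/c, and 99.63, 112.87 and 253.06 RPKM in C57BL/6J. Its C57BL/6J spread rested on library 3, which was 2.38 times the mean of the other two, and its log2 change in A/J relative to C57BL/6J was -0.60 (95% interval -1.35 to 0.15, limma adjusted p = 0.33).

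**Figure D3:**
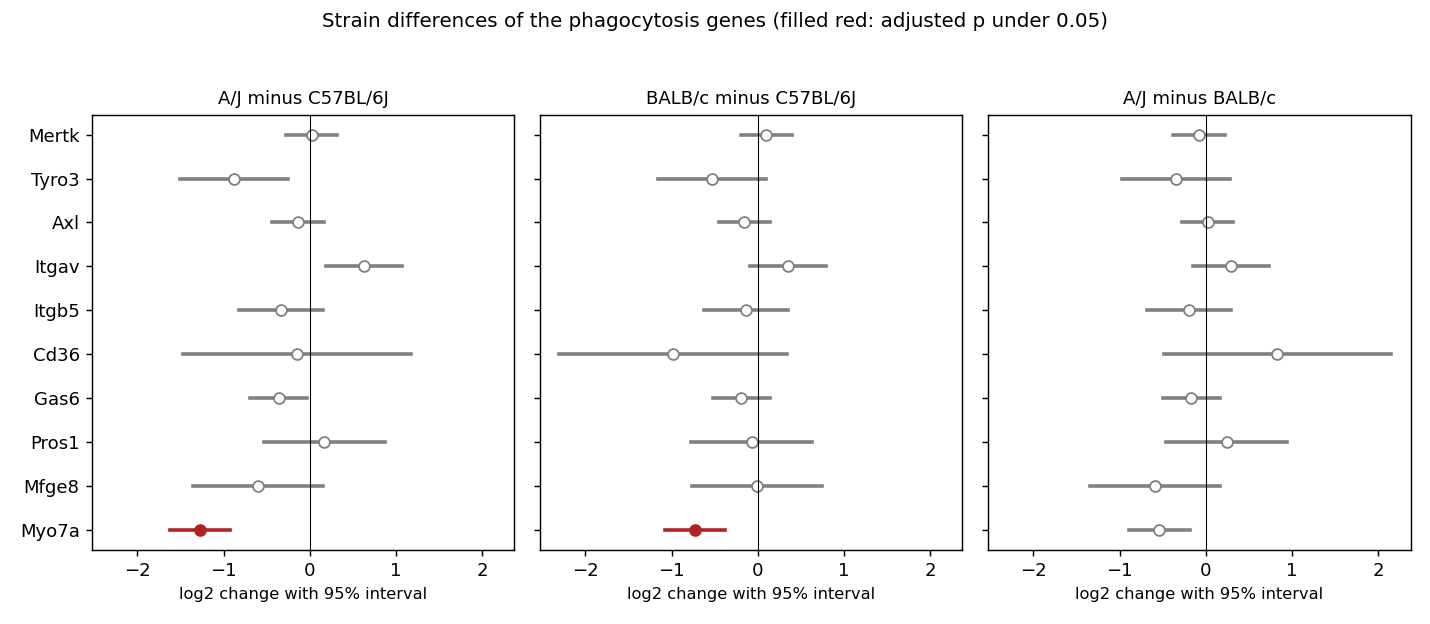
Log2 change with its 95% interval (horizontal axis) for each of the 10 genes in the 3 comparisons; filled red points passed the test at an adjusted p under 0.05. Myo7a is the only filled point, at -1.27 in A/J and -0.73 in BALB/c relative to C57BL/6J, and Cd36 has the widest interval.

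Counted over the 10 genes, with values scaled by library, 2 had no overlap between A/J and C57BL/6J (Itgav and Myo7a), against 16.4% of all genes tested. Between BALB/c and C57BL/6J there were 3 (Tyro3, Gas6 and Myo7a), against 25.1%. Between A/J and BALB/c there was 1 (Myo7a), against 29.2%. These counts show nothing particular to the 10 genes. Ratios between partners, which do not depend on library scaling, were tested by an exact permutation F test, with Benjamini-Hochberg adjustment over 5 ratios. Gas6 over Mertk was 34.1 ± 4.59 in A/J eyes, 35.9 ± 1.46 in BALB/c eyes and 44.6 ± 6.79 in C57BL/6J eyes (SD, n = 3 each; exact p = 0.046, adjusted 0.13). Tyro3 over Mertk was 1.44 ± 0.507 in A/J eyes, 1.69 ± 0.134 in BALB/c eyes and 2.84 ± 1.06 in C57BL/6J eyes (SD, n = 3 each; exact p = 0.068, adjusted 0.13). Itgb5 over Itgav was 2.58 ± 0.665 in A/J eyes, 3.57 ± 0.501 in BALB/c eyes and 5.63 ± 3.46 in C57BL/6J eyes (SD, n = 3 each; exact p = 0.079, adjusted 0.13). Axl over Mertk and Gas6 over Pros1 gave exact p of 0.24 and 0.53, and no ratio passed after adjustment.

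Gas6 averaged 130 RPKM over the 9 libraries, Mfge8 123 and Itgb5 51.3 RPKM, then followed Itgav at 14.3 and Axl at 13.9 RPKM, and last Pros1 at 7.86, Tyro3 at 6.78, Cd36 at 6.39, Mertk at 3.39 and Myo7a at 3.34 RPKM. Only the steps between Itgb5 and Itgav and between Axl and Pros1 had no overlap across the 9 libraries. By this mean the engulfment receptor and the motor were lowest, although Cd36 exceeded Mertk in only 6 of 9 libraries and was below it on average in BALB/c, at 3.28 RPKM against 3.36 RPKM. As a share, 21.4% of all listed genes lay below Mertk and 21.0% below Myo7a, whereas 97.6% lay below Gas6. Mfge8 exceeded Itgb5 in all 9 libraries although their ranges overlapped, and Gas6 exceeded Mfge8 in 7 of 9.

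Within A/J the 10 genes fell into sets that matched their base composition. The 6 genes with transcripts of 54.2% to 57% GC (Tyro3, Axl, Itgb5, Gas6, Mfge8 and Myo7a) were all highest in A/J 3 and lowest in A/J 2. The 3 genes of 38.4% to 43.5% GC (Itgav, Cd36 and Pros1) were all highest in A/J 2 and lowest in A/J 3. Mertk, at 48.1% GC, was highest in A/J 3 and lowest in A/J 1. In C57BL/6J, library 3 over the mean of the other two gave 2.38 for Mfge8, 1.92 for Itgb5 and 1.66 for Tyro3, and 0.72 for Itgav and 0.59 for Pros1, while Cd36 stood at 1.8. With each library corrected for its GC trend, the log2 change in A/J relative to C57BL/6J was -1.04 for Myo7a (limma adjusted p = 0.00059), -0.69 for Tyro3 (0.082), 0.40 for Itgav (0.15), -0.12 for Gas6 (0.49) and -0.38 for Mfge8 (0.39). In BALB/c the corrected change of Myo7a was -0.77 (limma adjusted p = 0.0036).

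**Figure D4:**
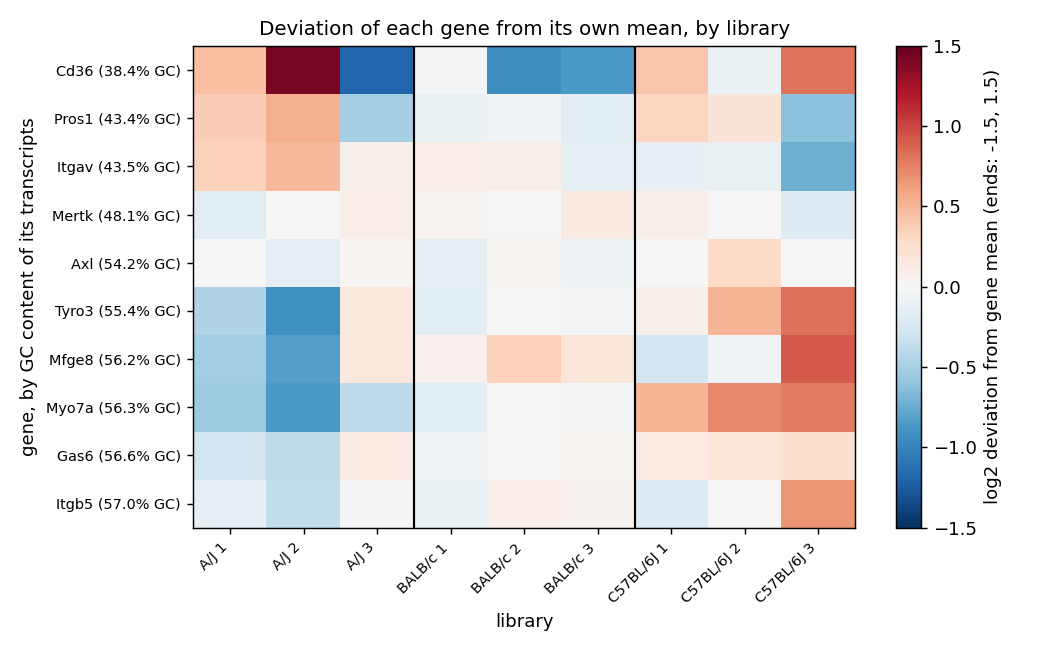
Deviation of each of the 10 genes from its own mean on the log2(scaled RPKM + 0.5) scale (colour, red above and blue below) in each library, with genes ordered from the lowest GC content, Cd36 at 38.4%, to the highest, Itgb5 at 57%. A/J 2 is red for the first 3 genes and blue for the last 5, and C57BL/6J 3 is red for the last 5.

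On the first principal component A/J 3, at 7.3, lay within the BALB/c range of 2.6 to 14.8. A/J 1 and A/J 2 lay away from it, at -42.4 and -51.4. Without A/J 3, 4 of the 10 genes were called between A/J and C57BL/6J. Tyro3 at -1.16, Gas6 at -0.51 and Itgav at 0.74 joined Myo7a at -1.37. In that fit 28.2% of all genes were called. With A/J 1 and A/J 2 left out instead, Tyro3 was at -0.33, Gas6 at -0.08, Itgav at 0.40 and Myo7a at -1.08. Between A/J and BALB/c, the fit without A/J 3 called 2 of the 10, Myo7a at -0.64 and Cd36 at 1.54 (limma adjusted p = 0.018 and 0.023), against 34.6% of all genes. Without both A/J 3 and C57BL/6J 3, 5 of the 10 were called, with Mfge8 added, against 39.4% of all genes.

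Of 111 other uptake genes tested, 3 were called between A/J and C57BL/6J and 3 between BALB/c and C57BL/6J. Between A/J and BALB/c 0 were called. Over all genes the shares called were 2.69%, 3.09% and 2.48% in that order, so these counts show nothing particular to the lists. Of 20 listed genes of engulfment signalling, 11 of phosphatidylserine exposure, 9 of the Usher and stereocilia proteins that work with Myo7a and 11 other unconventional myosins, none was called in any comparison (limma). At unadjusted p under 0.05 these 51 genes gave 7 for A/J minus C57BL/6J, 2 for BALB/c minus C57BL/6J and 10 for A/J minus BALB/c, where all genes gave 17.5%, 13.8% and 20.9%. Their median log2 changes in A/J relative to C57BL/6J were -0.08, -0.14, -0.20 and -0.23 in that order, against -0.01 for all genes. The most abundant genes of the engulfment, phosphatidylserine and myosin lists were Anxa2, a membrane-binding annexin, at a mean of 373 RPKM for A/J and 431 RPKM for C57BL/6J; Anxa5, which binds phosphatidylserine, at 89.0 RPKM for A/J and 96 RPKM for C57BL/6J; and Myo6, a motor that moves toward the minus end of actin, at 16.6 RPKM for A/J and 13 RPKM for C57BL/6J. Of 20 other receptors and bridging ligands listed, 1 fell: Thbs1, thrombospondin that bridges dying cells to Cd36, averaged 17.5 ± 2.53 RPKM in BALB/c and 30.6 ± 1.06 RPKM in C57BL/6J (SD, n = 3 each; log2 change -0.62, limma adjusted p = 0.048). That call was lost in 8 of 9 fits that left out 1 library and was made only without A/J 3, with changes from -0.69 to -0.50 (limma adjusted p 0.034 to 0.24). It was also lost with quantile normalization (0.069), with only the 2 strains compared (0.069) and without both A/J 1 and A/J 2 (0.068). Tulp1, a photoreceptor protein and a ligand of Mertk, averaged 175 ± 51.5 RPKM for A/J, 225 ± 14.3 RPKM for BALB/c and 261 ± 30.9 RPKM for C57BL/6J (SD, n = 3 each) and was not called.

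Among 28 genes of phagosome transport, autophagy proteins used in phagocytosis and lysosomal degradation, 2 rose in A/J and 1 in BALB/c relative to C57BL/6J, and none fell; over all genes 1.08% were called higher in A/J and 1.93% in BALB/c. Atg16l1, which directs lipidation of light chain 3 on the phagosome, had 25.71, 24.21 and 28.2 RPKM in A/J and 15.99, 15.36 and 20.97 RPKM in C57BL/6J (log2 change 0.68, limma adjusted p = 0.017). Ctsl, a lysosomal protease, had 589.03, 601.24 and 405.24 RPKM in A/J and 329.06, 238.19 and 268.58 RPKM in C57BL/6J (log2 change 1.03, limma adjusted p = 0.025). Because 28.2% of the 31-base stretches of Ctsl occur in other annotated genes, its level is uncertain. Gla, a lysosomal galactosidase, had 3.13, 3.23 and 3.35 RPKM in BALB/c and 2.04, 2.1 and 2.17 RPKM in C57BL/6J (log2 change 0.67, limma adjusted p = 0.037). In each of these comparisons the groups did not overlap. All 3 calls depended on single libraries and on the processing, with the direction kept. Over the 9 omissions Atg16l1 was not called in 4, those of A/J 1, BALB/c 3, C57BL/6J 1 and C57BL/6J 2 (limma adjusted p up to 0.10). Ctsl was called in 2, those of A/J 3 and C57BL/6J 1 (limma adjusted p up to 0.13 in the others), and Gla in 2, those of A/J 1 and A/J 3 (up to 0.20 in the others). Atg16l1 also missed the threshold with GC correction (log2 change 0.50, limma adjusted p = 0.14), without size factors (0.081), with only the 2 strains compared (0.14) and without both A/J 1 and A/J 2 (0.15). Gla also missed it with the replicate block (limma adjusted p = 0.056), GC correction (0.057) and no size factors (0.11), and Ctsl with only the 2 strains compared (0.14) and without both A/J 1 and A/J 2 (log2 change 0.62, limma adjusted p = 0.48). The list's median log2 change was 0.30 in A/J and 0.11 in BALB/c, against -0.01 for all genes in both.

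Of 12 other integrin subunits listed, only Itga4 was called. This partner of beta 1 and beta 7, known from leukocytes, had 9.11, 11.47 and 6.95 RPKM in A/J, 6.15, 4.77 and 4.88 RPKM in BALB/c, and 2.23, 1.96 and 1.75 RPKM in C57BL/6J. The 3 strains did not overlap, in the reverse order of Myo7a. The log2 change was 2.03 in A/J (95% interval 1.57 to 2.49, limma adjusted p = 0.00074) and 1.36 in BALB/c (95% interval 0.91 to 1.82, limma adjusted p = 0.007), each relative to C57BL/6J. Of its 31-base stretches 8.85% occur in other annotated genes, among them Cerkl, its neighbour. Both calls were made under all 20 alternatives run, with limma adjusted p up to 0.0064 for A/J and 0.044 for BALB/c over the omissions of 1 library. Itgb8, which also pairs with Itgav, averaged 10.3 ± 2.26 RPKM in A/J and 15 ± 2.11 RPKM in C57BL/6J (SD, n = 3 each) and was not called (limma adjusted p = 0.25).

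**Figure D5:**
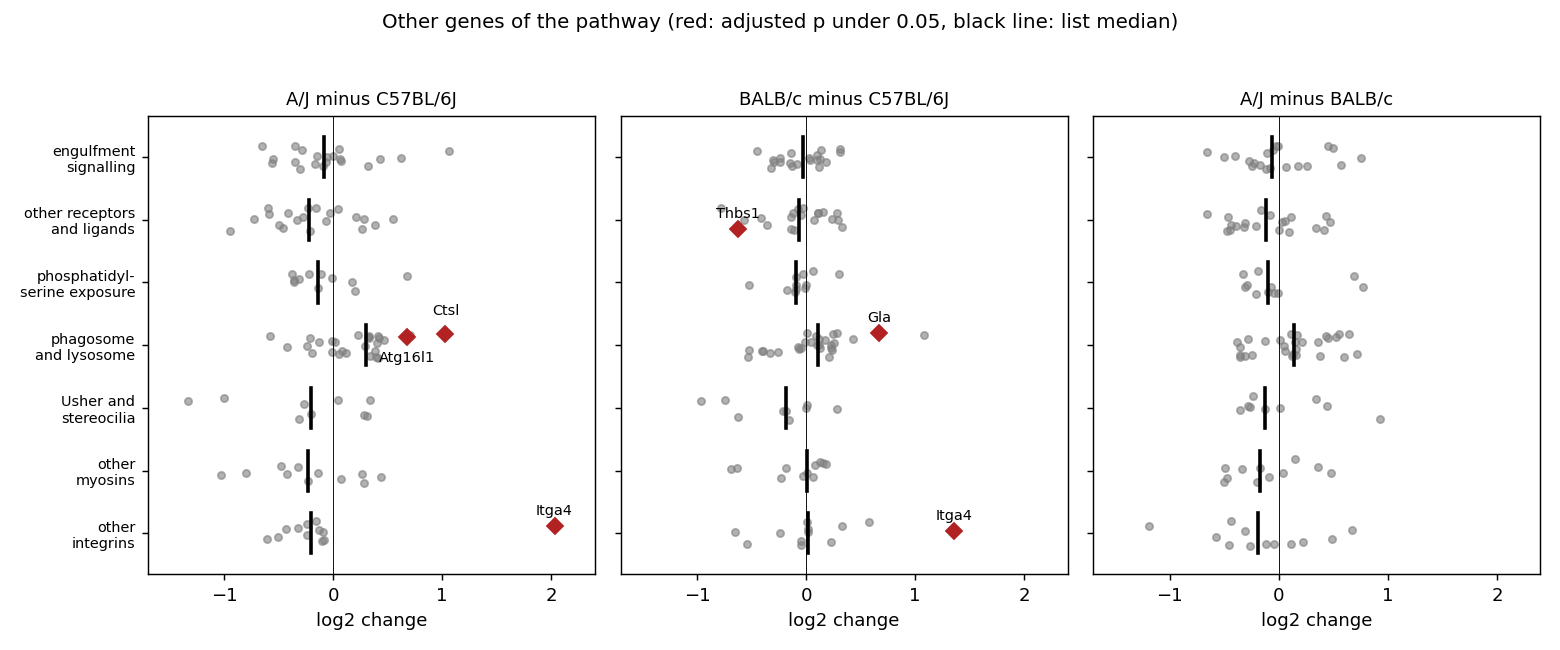
Log2 change (horizontal axis) of every tested gene of 7 lists of the uptake pathway in the 3 comparisons, with list medians as black lines and genes at an adjusted p under 0.05 as labelled red diamonds. Itga4 is the point farthest right, at 2.03 in A/J and 1.36 in BALB/c relative to C57BL/6J, and no gene of these lists was called between A/J and BALB/c.

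Over the 9 libraries, the genes whose log2 values ran most like those of Myo7a, among 12019 with a strain mean of at least 2 RPKM, were Cck (Pearson r = 0.987), Psmb5 (0.984), Rpl30 (0.981), Map3k6 (0.973) and Scnn1a (0.973). The 9 points are 3 strains, so r mostly reports the strain order, and it is given as a description. Cck, a neuropeptide of the inner retina, averaged 7.19 ± 1.26 RPKM for A/J, 13 ± 0.624 RPKM for BALB/c and 29.9 ± 4.62 RPKM for C57BL/6J (SD, n = 3 each). Psmb5, a proteasome subunit, shares 71.7% of its 31-base stretches with other annotated genes, and Rpl30, a ribosomal protein, 31.8%, so their values are uncertain. Among the other members of the uptake set, r with Myo7a was highest for Tyro3 (0.89) and Gas6 (0.86) and lowest for Itgav (-0.86), and it was -0.15 for Mertk.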

How the data were processed

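Poly(A) RNA from whole eyes was primed with random primers and sequenced. Per the submitters' processing notes, CASAVA 1.7, GenomeStudio and the mm9 build were used. No unit stands in the files, whose deposited values are taken as RPKM per gene, the unit that GenomeStudio gives. Multiplying the values by transcript length and summing gives 126.8% of the total that RPKM implies in C57BL/6J 3. In the other libraries it gives 108.7% to 111.9%. Counts and depth are unknown, so no interval from counts is given. The mm9 genome is that of C57BL/6J, and the part of strain variants in mapping was not tested.

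Each library was scaled by its median ratio to the gene-wise geometric mean (factors 0.9313 to 1.158), and values were tested as log2(RPKM + 0.5) with limma 3.58.1 (trend, robust, R 4.3.3) in 1 fit of 9 libraries, strain as the only term, on 12920 genes with at least 1 RPKM in 3 libraries (169 left out; all 10 members passed). P-values are two-sided and Benjamini-Hochberg adjusted over all genes tested; called means under 0.05. Single values were tested by exact permutation of the F statistic. The steps were tested on simulated data.

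GC content and 31-base stretches shared between genes came from GENCODE transcripts (GRCm38), matched for 98.5% of genes, and promoter windows from RefSeq; no coordinates were mixed with mm9. The members, lists and markers were chosen with earlier results of these data known. Named beside the members are every called gene and the most abundant gene of each pathway list (1 is not reported here), and the 5 genes most correlated with Myo7a. Each list was taken as far as the tables name its genes. Alternatives were no size factors, quantile normalization, other pseudocounts (0.1 and 1), no filter, each library left out, 2 pairs of libraries left out (A/J 1 with A/J 2, and A/J 3 with C57BL/6J 3), only the 2 strains compared, a replicate block, GC correction (lowess, span 0.3) and library quality weights. Myo7a relative to photoreceptor markers, and the alternatives for genes of the pathway lists, were added after seeing the data.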

Additional observations from a re-analysis of the deposited data

How the results depend on the processing

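Among 30 gene differences (10 genes in 3 comparisons) under 20 alternatives each, 525 of 600 kept their direction and side of the threshold, 8 lost a call, 30 gained one and 37 changed sign, none of these with a call. No size factors shifted the median of all genes by -0.11 in A/J and -0.17 in BALB/c relative to C57BL/6J. The 3 exact tests of Myo7a, run only without size factors, with other pseudocounts and without each library, gave p from 0.0036 to 0.011; as 0.0036 is the smallest p possible, they say little about stability.

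Leaving out 1 library each, 1 to 4 members were called for any strain difference and 1 to 4 for A/J minus C57BL/6J. The range was 0 to 1 for BALB/c minus C57BL/6J and 0 to 2 for A/J minus BALB/c. Without A/J 3, where 32.8%, 28.2% and 34.6% of all genes were called, these counts reached 4, 4 and 2 members in that order. With A/J 1 and A/J 2 both left out, 0 were called for A/J minus C57BL/6J. Without both A/J 3 and C57BL/6J 3, 7 were called for any difference and 5 for A/J minus C57BL/6J (61.6% and 39.4% of all genes). In that fit 2 were called for BALB/c minus C57BL/6J (Myo7a and Pros1) and 7 for A/J minus BALB/c. There 14.7% and 60.2% of all genes were called. Library quality weights put A/J 3 at 0.125 and C57BL/6J 3 at 0.135. With these weights 7 were called for any difference, 5 for A/J minus C57BL/6J and 9 for A/J minus BALB/c. Over all genes the shares were 74.5%, 46.5% and 72.3% in that order, so the high counts went with high shares. The cause was not tested.

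In each of the 37 sign changes, neither of the 2 fits set against each other held a call, though other fits called some of these differences. In the A/J comparison with C57BL/6J, Mertk was at -0.07 without size factors. With GC correction Mertk was at -0.07, Axl at 0.00 and Pros1 at -0.07. With weights Mertk was at -0.13 and Cd36 at 0.48. Without both A/J 3 and C57BL/6J 3, Mertk was at -0.11 and Cd36 at 0.78, and Pros1 was at -0.49 without A/J 1 and A/J 2 together. Over single omissions Mertk ran from -0.06 to 0.08, Cd36 from -0.75 to 0.56 and Pros1 from -0.12 to 0.49. For BALB/c minus C57BL/6J, Mertk was at -0.06 without size factors. Itgb5 was at 0.11 and Mfge8 at 0.34 without both A/J 3 and C57BL/6J 3, and at 0.05 and 0.26 with weights. Over single omissions Itgb5 ran from -0.32 to 0.11, Pros1 from -0.36 to 0.11 and Mfge8 from -0.25 to 0.34. For A/J minus BALB/c with A/J 1 and A/J 2 left out, Mertk was at 0.02, Tyro3 at 0.20, Cd36 at -0.60, Gas6 at 0.11 and Pros1 at -0.42. With GC correction Itgb5 was at 0.09, Gas6 at 0.10 and Pros1 at -0.04. Axl was at -0.01 without both A/J 3 and C57BL/6J 3, and ran from -0.02 to 0.07 over single omissions.

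The labels do not say whether the replicate numbers pair the samples. Deviations of same-numbered libraries from their strain means correlated at 0.337 to 0.537 for libraries 1 and 0.092 to 0.472 for libraries 3. For libraries 2 the correlations ran from -0.515 to 0.021. What the replicate numbers stand for was not tested. With the replicate block, 406 genes were called for A/J against C57BL/6J, 398 for BALB/c against C57BL/6J and 373 for A/J against BALB/c, and the 10 genes gave 1, 1 and 0 calls. Of 111 tested genes of the pathway lists, 3 were called in A/J against C57BL/6J, 3 in BALB/c against C57BL/6J and 0 in A/J against BALB/c; without A/J 3 these were 31, 4 and 40, with 28.2%, 4.89% and 34.6% of all genes called. Limits are 3 libraries a strain, unknown depth, and Myo7a and Mertk near 3 RPKM.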

Other observations

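The genes next to Myo7a on chromosome 7 were looked at after its values were seen: 5 listed neighbours on each side by RefSeq order. None of the 10 was called in any comparison (limma); the groups did not overlap for 5 of them between A/J and C57BL/6J (16.4% of all genes), 1 between BALB/c and C57BL/6J (25.1%) and 5 between A/J and BALB/c (29.2%). Capn5, a calpain next to Myo7a, had 12.26, 10.95 and 17.36 RPKM in A/J, 19.07, 23.93 and 22.37 RPKM in BALB/c, and 21.78, 19.42 and 28.85 RPKM in C57BL/6J, so A/J lay below both other strains (log2 change relative to C57BL/6J -0.67, limma adjusted p = 0.12). Omp had 5.9, 4.96 and 6.34 RPKM in A/J and 3.11, 3.57 and 4.35 RPKM in C57BL/6J (log2 change 0.68, limma adjusted p = 0.079). Lrrc32 had 0.89, 0.86 and 1.6 RPKM in A/J and 2.06, 2.94 and 2.79 RPKM in C57BL/6J (log2 change -0.87, limma adjusted p = 0.052), and Aqp11 had 2.23, 1.94 and 2.89 RPKM in A/J and 4.04, 3.6 and 3.98 RPKM in C57BL/6J (log2 change -0.53, limma adjusted p = 0.11).

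Rpe65, the isomerase of the visual cycle and a marker of the pigment epithelium, had 228.99, 249.88 and 116.62 RPKM in A/J, 102.41, 101.45 and 114.05 RPKM in BALB/c, and 96.53, 81.69 and 56.05 RPKM in C57BL/6J. Its log2 change in A/J relative to C57BL/6J was 1.41 (95% interval 0.68 to 2.14, limma adjusted p = 0.06), which did not pass the test. The other 12 pigment epithelium markers ran from -0.73 (Stra6) to 0.96 (Ermn) in that comparison.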
